A study of Mus musculus with 8 samples.

Results

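The claudin genes Cldn1, Cldn2, Cldn3, Cldn4, Cldn5, Cldn6, Cldn7, Cldn8, Cldn10 and Cldn12 were examined, 10 of the 46603 genes in the count table. They were taken by symbol, as claudins of epithelia with the endothelial claudin Cldn5 among them, and all 10 passed the filter on low counts that left 13605 genes for testing. RNA was sequenced from liver cells of 4 mice, with an EGFP-positive and an EGFP-negative library from each. All mice carried R26rtTA het and H2B-EGFP het: a transactivator in the ubiquitously active Rosa26 locus that, with doxycycline, switches on a histone-EGFP fusion, on a mixed C57BL/6 and CBA background. Every mouse was exposed to doxycycline from birth until postnatal day 5, and cells were sorted at 8 weeks of age. The label is diluted when a cell divides, so EGFP-positive cells are label-retaining (liver label-retaining cells, LLRCs) and EGFP-negative cells are non-label-retaining (non-LRC). Both fractions were gated as EpCAM-positive and CD45-negative after bead depletion of CD45-positive cells, and in this mouse line hematopoietic cells can carry EGFP without doxycycline.

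Claudins are small membrane proteins that cross the membrane repeatedly and polymerise into the strands of tight junctions, where they meet claudins of the neighbouring cell. The mixture of claudins sets how tightly an epithelium is sealed and which ions and water pass between its cells. In bile ducts, tight junctions keep bile in the lumen, and in blood vessels claudin-5 seals the contacts between endothelial cells.

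The relatedness of the members is visible in the coding sequence of the first extracellular loop, which holds the signature that defines the family. The stretches below, in GRCm38 coordinates, are shown for the 4 claudins with the highest level per length and for Cldn5 and Cldn1, whose fold changes were furthest from 0. Capitals mark the codons for glycine, leucine and tryptophan and for the 2 cysteines of the signature, and each sequence reads 5′ to 3′ on the coding strand.
Cldn3, chr5:134986586-134986633, plus strand: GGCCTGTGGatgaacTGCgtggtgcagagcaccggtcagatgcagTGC
Cldn8, chr16:88562844-88562891, minus strand: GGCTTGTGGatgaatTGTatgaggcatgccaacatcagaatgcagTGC
Cldn6, chr17:23681208-23681255, plus strand: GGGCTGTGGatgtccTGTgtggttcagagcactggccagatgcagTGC
Cldn12, chr5:5508225-5508269, minus strand: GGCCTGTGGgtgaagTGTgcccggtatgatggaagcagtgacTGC
Cldn5, chr16:18777140-18777187, plus strand: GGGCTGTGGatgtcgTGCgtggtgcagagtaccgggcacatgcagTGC
Cldn1, chr16:26371435-26371482, minus strand: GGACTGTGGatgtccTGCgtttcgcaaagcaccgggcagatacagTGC

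A search for a stretch of this form, which allowed 8 to 10 codons between the cysteines, found it in 9 of the 10 members, over 45 bases in Cldn12 and 48 bases in the other 8, and not in the Cldn10 transcript used here. The coding sequences ran from 210 to 244 codons, and 9 of 10 ended in tyrosine and valine codons, the carboxy-terminal motif through which claudins bind the PDZ domains of zonula occludens proteins. Cldn12 was the exception. Over the 45 pairs of members, the identity of the aligned coding bases had a median of 53.0%. Cldn3 and Cldn4 were the closest pair at 69.8%, and Cldn5 and Cldn12 the most distant at 48.3%. No run of 50 exon bases of a member occurred in the transcripts of another gene. The counts ignored strand, and 40 exon bases of Cldn3 (3.18% of its exon length) overlap Wbscr25 on the opposite strand, so reads there cannot be attributed to either gene.

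The depth was between 7860021 and 9851819 counts in the LLRC libraries and between 4670132 and 8056103 in the non-LRC libraries. Levels are given as CPM, read counts scaled by library size and TMM factor, with the SD over 4 libraries. The non-LRC library of JV621 had the fewest genes detected, 14234 against 16042 to 20430 elsewhere. Of the biliary markers, all 10 were read in every library, with Krt19 at 89.1 to 172 CPM. Transcripts of other cell types were also read: summed over 10 hepatocyte markers, the level was 2965 to 3284 CPM in LLRC libraries and 2113 to 7323 CPM in non-LRC libraries. The sum over 10 pancreatic acinar markers was 1136 CPM in the non-LRC library of JV6314 and 22.9 CPM or less in the other libraries, and the leukocyte sum, mostly Cd74, lay between 17.99 and 78.5 CPM in all 8. Ptprc, which encodes the CD45 used to exclude leukocytes, was at 0.485 to 6.55 CPM in LLRCs and at 0 to 1.38 CPM in the EGFP-negative libraries, higher in LLRCs in 4 of 4 mice, as were 7.74% of all genes tested (edgeR unadjusted p = 0.0468, adjusted p = 0.957). The other 6 of the 7 leukocyte markers had a lower mean in LLRCs, Lyz2 at 0.0834 against 1.80 CPM. Most of them were near 0: Cd52, Laptm5, Coro1a and Tyrobp had at most 10 counts in any library. Cd74 was at 32.7 against 36.2 CPM with overlapping groups.

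Whether the claudin complement of label-retaining cells differs from that of the other sorted cells was asked by comparing the 4 LLRC with the 4 non-LRC libraries. Cldn5 stood apart, with a mean 13.5-fold lower in LLRCs and no overlap between the groups, while the means of the 8 claudins other than Cldn1 and Cldn5 had LLRC over non-LRC ratios from 0.963 to 1.51 and overlapping groups. Cldn1 was also lower on average in LLRCs, but its non-LRC mean rested on the library of JV624. By the quasi-likelihood fit of edgeR none of the members passed an adjusted p of 0.05 (0 of 10), and 0 of all 13605 genes (0%) did. At an unadjusted p below 0.05 the test gave Cldn5 alone among the members, against 702 genes or 5.16% of all genes. Fold changes are LLRC over non-LRC. Nothing in the labels separates the sorted libraries of a group other than the mouse, so the p-values measure the spread between 4 mice. Both groups came from the same 4 mice, but the main fit and the permutation tests treated the 8 libraries as independent. A fit with the mouse as a block was an alternative.

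**Figure D1:**
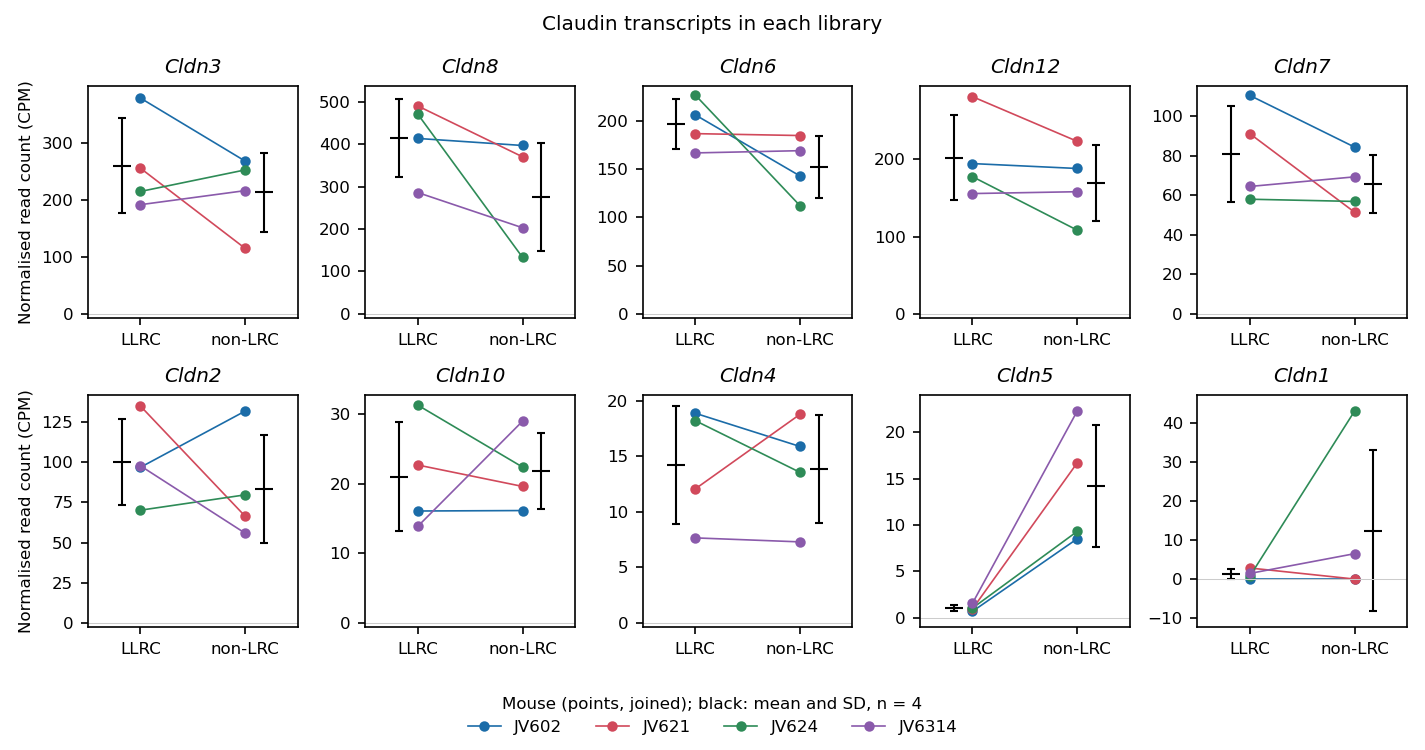
Normalised read counts (CPM, linear axes that differ between panels) of the 10 claudins in LLRC and non-LRC libraries, ordered by level per kilobase. Points are libraries, lines join the libraries of a mouse, and black marks give the mean and SD over 4 libraries; the groups do not overlap for Cldn5, at 0.679 to 1.55 CPM in LLRCs against 8.52 to 22.3 CPM in non-LRC cells.

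Cldn5 encodes the main claudin of endothelial tight junctions, best known from the blood-brain barrier (ENSMUSG00000041378, a single exon on chromosome 16, 18776847 to 18778262 of GRCm38, plus strand). In the mice JV602, JV621, JV624 and JV6314, 7, 8, 7 and 14 reads were counted in LLRCs and 68, 80, 59 and 113 in their EGFP-negative counterparts. As CPM these were 0.679, 0.946, 1.03 and 1.55 against 8.52, 16.7, 9.31 and 22.3. The highest LLRC value lay below the lowest non-LRC value, a pattern that 1.91% of all genes tested showed, and each LLRC value was above the level of 3 counts in its library. The means were 1.05 ± 0.367 and 14.2 ± 6.53 CPM (SD, n = 4), and within mice the level was 12.6, 17.7, 9.05 and 14.3 times lower in LLRCs. The log2 fold change was -3.73 (SE 0.57, 95% interval -5.01 to -2.46), and the edgeR fit gave an unadjusted p of 8.98e-05 and an adjusted p of 0.0809. The exact two-sided permutation test over the 8 libraries, which ignored the pairing by mouse, gave p = 0.0286, the smallest that 4 against 4 allows. DESeq2's Wald test gave an adjusted p of 1.25e-08 and called 1.62% of all genes, and edgeR's exact test gave 1.21e-05 and called 1.17%. With the mouse as a replicate block the log2 fold change was -3.68, and the edgeR p was 0.000594 unadjusted and 0.248 adjusted. The study's list of changed genes, chosen on these same libraries, includes Cldn5, so its direction here is not independent evidence.

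Levels of endothelial markers were compared beside Cldn5. All 10 endothelial markers examined (Stab1, Stab2, Sox17, Sox18, Egfl7, Tie1, Lyve1, Erg, S1pr1 and Robo4) had a lower mean in LLRCs, and none of them is in the study's list. None passed the threshold: of the 7 that were tested, Egfl7 had the smallest edgeR adjusted p at 0.105, and Tie1, Lyve1 and Erg were below the filter on low counts. Their sum was 14.1, 34.2, 13.8 and 13.4 CPM in the LLRC libraries and 60.5, 546, 128 and 171 CPM in the non-LRC libraries, in the order of mice above. Between 0 and 4 of the 10 were at 0 counts in an LLRC library, and in the non-LRC group Tie1 and Lyve1 were at 0 in the library of JV621. The mean of the sum was 11.99-fold lower in LLRCs, but 6.35-fold lower without the non-LRC library of JV621, where S1pr1 (245 CPM) and Sox17 (194 CPM) were high. For Cldn5 the ratio of the means was 13.5 with all libraries and 12.7 without that one, a comparison added after the data were seen. As a percent of this sum, Cldn5 stood at 4.83, 2.77, 7.45 and 11.6 in LLRCs against 14.1, 3.06, 7.28 and 13.0 in non-LRC cells. The groups overlapped, at 6.65 ± 3.796 and 9.36 ± 5.16 (SD, n = 4), a measure added after the data were seen. The LLRC percentages rested on 7 to 14 Cldn5 reads in a library. That of the non-LRC library of JV621 had a sum raised by S1pr1 and Sox17, so the overlap does not show equal shares. In such bulk libraries fewer cells of a type and less RNA per cell cannot be told apart, and what part the endothelial cells had in the Cldn5 difference was not tested.

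**Figure D2:**
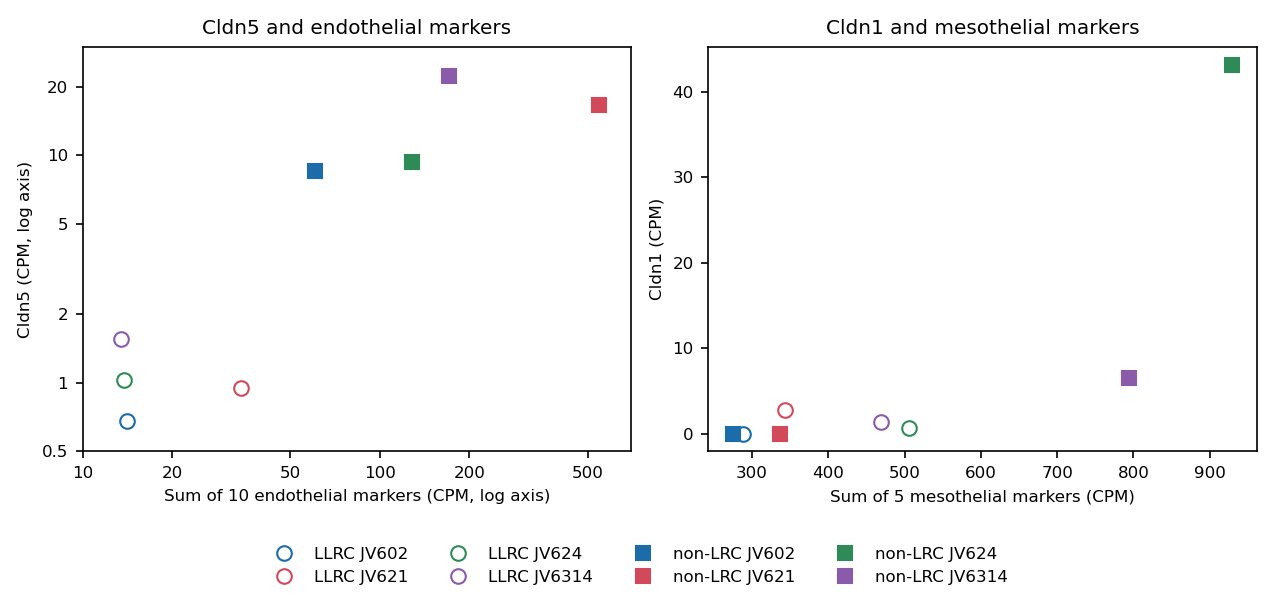
Left, Cldn5 against the sum of 10 endothelial markers in each library (CPM, both axes logarithmic); right, Cldn1 against the sum of 5 mesothelial markers (CPM, linear axes). Open circles are LLRC and filled squares non-LRC libraries, coloured by mouse; the 4 non-LRC libraries are high on both axes at left, and the non-LRC library of JV624 is highest on both axes at right, at 43.1 CPM of Cldn1 and 929 CPM of the markers.

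Cldn1, a barrier-forming claudin of many epithelia and a factor in hepatitis C virus entry (ENSMUSG00000022512, chromosome 16, 26356642 to 26371841, minus strand), was the member with the lowest level per length. For JV602, JV621, JV624 and JV6314, 0, 24, 5 and 13 reads were counted in LLRCs and 0, 0, 273 and 33 in the EGFP-negative cells. As CPM this was 0, 2.84, 0.735 and 1.44 against 0, 0, 43.1 and 6.51, so the groups overlapped and both libraries of JV602 were at 0. The means were 1.25 ± 1.21 and 12.4 ± 20.7 CPM (SD, n = 4). The log2 fold change of -3.29 had a standard error of 1.90 and a 95% interval of -7.57 to 0.99, with an adjusted p of 0.9999 in the edgeR fit and an exact permutation p of 0.429. Without the non-LRC library of JV624 the non-LRC mean was 2.17 CPM and the log2 fold change -0.78. The 2 non-LRC libraries with Cldn1 counts, those of JV624 and JV6314, also had the highest sums of mesothelial markers (929 and 794 CPM, 275 to 506 CPM in the other 6), of hepatocyte markers (7323 and 5313 CPM, at most 3284 CPM in the others) and of stellate cell and fibroblast markers (2489 and 1876 CPM, at most 569 CPM in the others). Of the 5 mesothelial markers Msln was at 193 and 65.5 CPM in these libraries and at most 25.5 CPM elsewhere, and Upk3b at 197 and 83.1 CPM and at most 32.5 CPM elsewhere, whereas Wt1 was at 49.6 CPM in JV624 and 0.197 CPM in JV6314. Upk1b, the largest part of the sum, was at 414 and 631 CPM in them and at 477 CPM in the LLRC library of JV624, and Lrrn4 was at 76.4 and 13.8 CPM in them and at 20.2 CPM in the LLRC library of JV621. The stellate cell and fibroblast sum was mostly Dcn, at 2311 and 1815 CPM in the non-LRC libraries of JV624 and JV6314. Col3a1 was at 153 and 50.1 CPM in these, at 57.6 CPM in the LLRC library of JV6314 and at 68.7 CPM in the non-LRC library of JV621. The mean of 5 of 5 mesothelial, 9 of 10 hepatocyte and 5 of 5 stellate cell and fibroblast markers was lower in LLRCs. No hepatocyte marker was at 0 in any library, Wt1 and Lrrn4 were at 0 in the non-LRC library of JV621, and Des was at 0 in 5 of 8 libraries. The part of these cells in the Cldn1 counts was not tested.

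Of the barrier-forming claudins Cldn3, Cldn4 and Cldn7, none showed a difference between the groups that was larger than the spread of its libraries. Cldn3, which with Cldn4 serves as a receptor for Clostridium perfringens enterotoxin (ENSMUSG00000070473, chromosome 5, 134986214 to 134987472, plus strand), stood at 378, 255, 215 and 191 CPM in LLRCs against 268, 115, 252 and 216 CPM in non-LRC cells. It was higher in LLRCs in 2 of 4 mice, and its log2 fold change was 0.29 (95% interval -0.48 to 1.06). Cldn4, a paralogue nearby on the same chromosome (ENSMUSG00000047501, chromosome 5, 134945119 to 134946934, minus strand), was read at 18.9, 12.1, 18.2 and 7.66 CPM in LLRCs against 15.9, 18.8, 13.6 and 7.30 CPM in non-LRC cells. Its log2 fold change of 0.03 (95% interval -0.99 to 1.06) turned to -0.013 with DESeq2's size factors. Both libraries of JV6314 had the least Cldn4 of their group. Cldn7, which binds EpCAM and also lies along the basolateral membrane (ENSMUSG00000018569, chromosome 11, 69964779 to 69967885, plus strand), ranged from 57.9 to 110 CPM in LLRCs and from 51.4 to 84.3 CPM in non-LRC cells, with a log2 fold change of 0.31 (95% interval -0.39 to 1.00).

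Cldn8, known from the distal nephron, where it acts with Cldn4 (ENSMUSG00000050520, a single exon on chromosome 16, 88560828 to 88563183, minus strand), had the highest fold change of the 10 members with all libraries included. In JV602, JV621, JV624 and JV6314 its level was 414, 491, 472 and 286 CPM in LLRCs and 397, 371, 133 and 203 CPM among EGFP-negative cells. The LLRC level was higher in 4 of 4 mice, by 1.04, 1.32, 3.54 and 1.41 times, a pattern shown by 7.74% of all genes tested. The groups nevertheless overlapped, with means of 416 ± 92.2 and 276 ± 128 CPM (SD, n = 4) and a log2 fold change of 0.59 (SE 0.38, 95% interval -0.27 to 1.45, edgeR adjusted p = 0.9999, exact permutation p = 0.143). Without the non-LRC library of JV624, where Cldn8 was lowest, the log2 fold change was 0.35, below the 0.38 of Cldn3. The biliary markers did not share one direction in that library: Cftr, at 21.3 CPM, Spp1, Tspan8 and Sctr were the lowest of the 8 libraries, while Krt19, at 172 CPM, Krt7 and Onecut1 were the highest. Whether these bear on Cldn8 was not tested.

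Cldn6, which is best known from embryonic epithelia and pluripotent cells (ENSMUSG00000023906, chromosome 17, 23679249 to 23682446, plus strand), was read at a high level in the adult sorted cells. Its CPM were 207, 187, 227 and 167 in LLRCs against 143, 185, 112 and 169 in non-LRC cells. The fold change was 0.37 on the log2 scale (95% interval -0.19 to 0.93; exact permutation p = 0.114). It varied least among the members, with a coefficient of variation over libraries of 13.1% among LLRCs and 20.9% among EGFP-negative cells, where the other members had 22.2% to 96.4% and 22.4% to 167%. In JV621 and JV6314 the level was nearly the same in both fractions, with LLRC over non-LRC ratios of 1.011 and 0.986.

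Of the claudins that form channels, Cldn2 (ENSMUSG00000047230, chromosome X, 139800828 to 139811386, plus strand) makes a pore for cations and water. It stood at 96.8, 135, 70.2 and 97.8 CPM in LLRCs against 132, 66.4, 79.7 and 55.8 CPM in non-LRC cells. The level was higher in LLRCs in JV621 and JV6314 and lower in JV602 and JV624, for a log2 fold change of 0.26 (95% interval -0.52 to 1.04). Cldn10, whose isoforms make pores for either anions or cations (ENSMUSG00000022132, chromosome 14, 118787908 to 118875489, plus strand), was read at 16.1, 22.7, 31.3 and 13.9 CPM in LLRCs against 16.2, 19.6, 22.4 and 29.0 CPM in non-LRC cells. Its log2 fold change was -0.05 (95% interval -0.92 to 0.81) with the isoforms counted together, and it turned positive, 0.031, in limma. The highest non-LRC value came from JV6314, the library with 1136 CPM of acinar markers, and the highest of all from the LLRC library of JV624, with 7.35 CPM of them. Their part in the Cldn10 counts was not tested. Cldn12, the member without the PDZ-binding end (ENSMUSG00000046798, chromosome 5, 5489537 to 5514958, minus strand), ranged from 156 to 281 CPM in LLRCs and from 108 to 223 CPM in non-LRC cells, with a log2 fold change of 0.26 (95% interval -0.44 to 0.95).

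**Figure D3:**
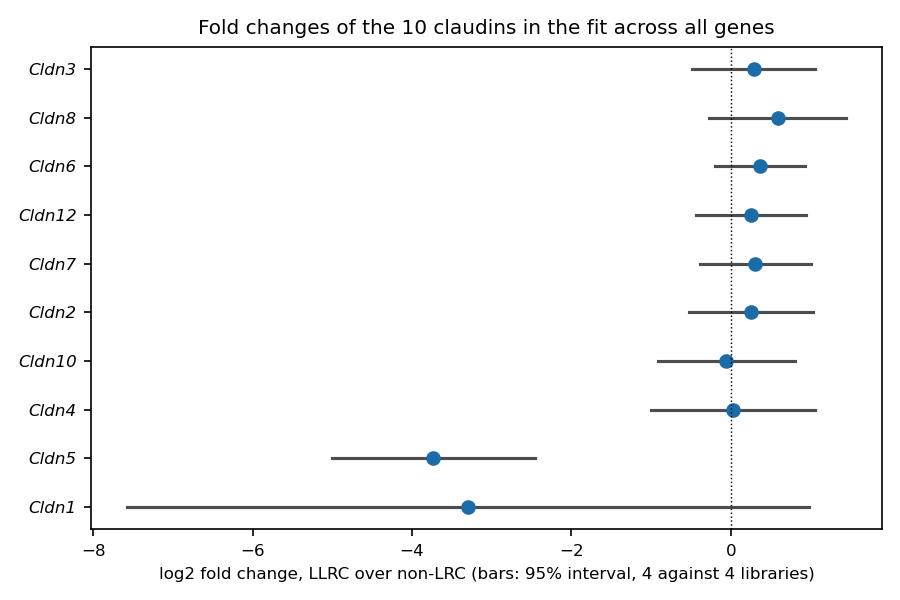
Log2 fold changes of the 10 claudins, LLRC over non-LRC, with 95% intervals from edgeR's quasi-likelihood fit of 4 against 4 libraries, ordered by level per kilobase. The interval of Cldn5, from -5.01 to -2.46, lies wholly below 0, and the other 9 intervals include 0.

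Counted over the members, 7 fold changes were above 0 and 3 below (Cldn1, Cldn5 and Cldn10), but Cldn4 went below 0 with DESeq2's size factors and in limma, Cldn10 above 0 in limma, and Cldn2 below 0 without the libraries of JV621. The median log2 fold change was 0.26, against -0.015 over all 13605 genes, of which 48.9% were above 0. Without Cldn1 and Cldn5 the median of the remaining 8 was 0.27. No member had all LLRC libraries above all non-LRC libraries, which 2.15% of all genes did. Each of those 8 claudins had an interval that included 0, and changes within a member's own interval could not be told from no change at this depth and replicate spread.

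Since longer transcripts give more reads, the members were ranked by CPM per kilobase of exon. Cldn3 led at 207 ± 66.2 in LLRCs against 169 ± 54.7 in non-LRC cells (CPM per kilobase, SD, n = 4), followed by Cldn8 at 176 ± 39.1 and 117 ± 54.4 and Cldn6 at 114 ± 15.03 and 88.6 ± 18.5. Cldn12, Cldn7 and Cldn2 came next with means over all 8 libraries of 43.9, 37.6 and 27.6 CPM per kilobase. Cldn10 at 8.26, Cldn4 at 7.74, Cldn5 at 5.39 and Cldn1 at 1.41 CPM per kilobase closed the order. Among non-LRC cells alone Cldn5, at 10.03 ± 4.61, had a higher mean than Cldn10, at 8.41 ± 2.10, and Cldn4, at 7.65 ± 2.69 CPM per kilobase. Without division by length Cldn8 led the order in place of Cldn3. Of the neighbours in this order, Cldn6 and Cldn12, and Cldn2 and Cldn10, had ranges that did not overlap in either group. Cldn4 and Cldn5 were separate in LLRCs alone, and all other neighbours overlapped in both groups.

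Of the summed claudin level per kilobase, Cldn3 made up 32.2 ± 5.65% in LLRCs against 33.9 ± 11.4% in non-LRC cells, Cldn8 27.8 ± 4.11% and 22.8 ± 8.80%, and Cldn6 18.3 ± 2.84% and 17.8 ± 4.16% (SD, n = 4). These 3 together held 73.4% to 81.3% in every library. Cldn3 was the first member in 5 libraries and Cldn8 in the other 3, the LLRC libraries of JV621 and JV624 and the non-LRC library of JV621. Cldn5 held 0.127 ± 0.0712% in LLRCs against 2.06 ± 1.02% in non-LRC cells, and Cldn1 reached 2.06% in the non-LRC library of JV624 and at most 0.0849% in any LLRC library. Cldn12, Cldn7 and Cldn2 had mean shares of 7.77%, 6.59% and 4.87% over the 8 libraries. Exon length here covers all annotated exons of a gene, which can exceed the length of the transcripts made.

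**Figure D4:**
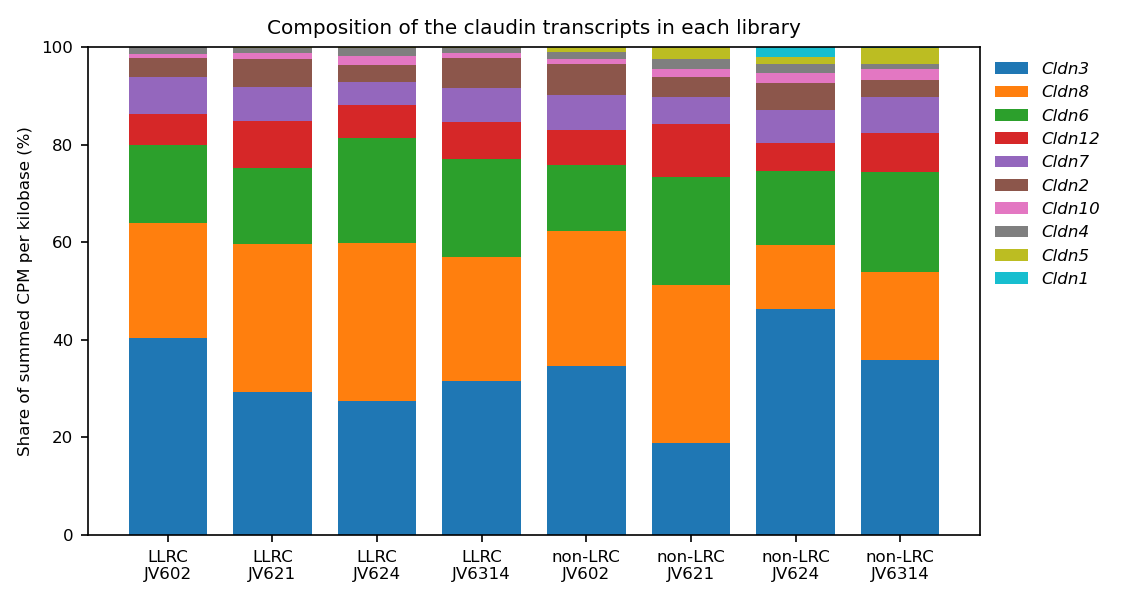
Share of each claudin in the summed CPM per kilobase of exon of the 10 members, as stacked bars to 100%, 1 bar for each of the 8 libraries. Cldn3, Cldn8 and Cldn6 hold 73.4% to 81.3% of every bar, and Cldn5 is visible near the top of the non-LRC bars.

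The count table held 27 other rows with a claudin symbol, of which 3 passed the filter, 13 had a few counts and 11 had 0 counts in every library. Cldn15, a cation-pore claudin of the intestine, stood at 3.88, 8.04, 9.71 and 9.33 CPM in LLRCs against 10.6, 9.81, 32.2 and 24.3 CPM in non-LRC cells. All LLRC libraries were below all non-LRC libraries, as for 1.91% of all genes tested, by a narrow gap between 9.71 and 9.81 CPM. The log2 fold change was -1.31 (SE 0.53, edgeR adjusted p = 0.893). The exact permutation p of 0.0286 is the smallest that 4 against 4 allows and follows from the separation. The 2 highest Cldn15 values came from the non-LRC libraries of JV624 and JV6314, as for Cldn1. Cldn23, whose role is less well known, had 60.0 ± 17.3 CPM in LLRCs against 39.3 ± 30.7 CPM in non-LRC cells (SD, n = 4), and the claudin-domain gene Cldnd1 219 ± 31.1 and 311 ± 315 CPM, with log2 fold changes of 0.61 and -0.50 that missed the threshold. The direction of Cldnd1 rested on the non-LRC library of JV621, at 775 CPM, without which the non-LRC mean was 156 CPM, below that of LLRCs.

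The genes of proteins that work with claudins at the junction were compared in the same fit. Of 11 transmembrane partners tested, 7 had a fold change above 0 and 4 below, with a median log2 fold change of 0.095, and of 16 scaffold and polarity genes 12 were above 0 and 4 below, with a median of 0.29. None passed the threshold, and at an unadjusted p below 0.05 the count was 1, Jam2, against 5.16% of all genes. Jam2 encodes a junctional adhesion molecule found on endothelial cells, and stood at 3.30, 13.6, 12.5 and 2.66 CPM in LLRCs against 115, 1422, 145 and 133 CPM in non-LRC cells. Its log2 fold change was -5.83 (SE 1.14, edgeR adjusted p = 0.136). As for Cldn5 and 1.91% of all genes tested, every LLRC library was below every non-LRC library. The means differed 56.6-fold, but 16.4-fold when the non-LRC library of JV621 was omitted, a value added after the data were seen. Jam2 too is in the study's list chosen on these libraries. The highest value, in the non-LRC library of JV621, came from the library with the highest sum of endothelial markers, and whether such cells bear on Jam2 was not tested.

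Ocln, which encodes the tight junction protein occludin, was read at 322 ± 39.8 CPM in LLRCs against 236 ± 84.9 CPM in non-LRC cells (SD, n = 4). Its fold change on the log2 scale was 0.45 (95% interval -0.24 to 1.13). Tjp1, the scaffold ZO-1 that binds claudin tails, had a log2 fold change of -0.45 (95% interval -1.43 to 0.54), and Cgn, the junctional plaque protein cingulin, 0.43 (95% interval -0.22 to 1.08). Magi1, a scaffold with several PDZ domains, stood at 0.70 (95% interval -0.23 to 1.63), and Jam3, a relative of Jam2, at -1.65 (95% interval -4.08 to 0.78). Epcam, the surface protein used in the sort, was at 583 ± 48.6 and 551 ± 148 CPM. None of these genes passed the threshold.

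Genes whose log2 CPM followed that of Cldn5 most closely over the 8 libraries were Mrc1, Adcy4, Myct1, Clec4g and Entpd1, with Pearson's r of 0.981 to 0.977. All 5 were lower in LLRCs, Mrc1 at 4.21 CPM on average against 164 CPM, so the r holds the group difference, and all 5 are in the list of changed genes that the study chose on these libraries. After subtraction of the group means it was 0.677 to 0.817. These are the highest of 13604 genes compared in libraries that share depth and scaling, and they are given as a description.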

How the data were processed

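The authors made the deposited raw gene counts with HTSeq 0.5.3p9 (union mode, exons, without strand) on GRCm38.p4 with the Ensembl annotation. The aligner is not given in the sources used here. A deposited table of the authors' own edgeR 3.2.4 comparison (log fold change, log CPM, p-value, FDR) was not used. Identifiers were matched to GENCODE M21 (GRCm38) for 46091 of 46603 rows, and 512 had no symbol. Coding sequences came from the same annotation.

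From the counts, 13605 genes passed filterByExpr and were tested with edgeR 4.0.16 in R 4.3.3 (TMM factors 0.816 to 1.23, quasi-likelihood test with no term besides group, adjusted by Benjamini-Hochberg over all genes, threshold 0.05). DESeq2 1.42.0 and limma 3.58.1 served as alternatives, and single genes were compared with exact permutation tests (scipy 1.17.1). The tests were tried on simulated counts, with a required outcome at a low dispersion only. Their outcome at the spread of these libraries is not reported here. The 95% intervals come from the quasi-likelihood fit. A floor of 3 counts was 0.291 to 0.626 CPM in these libraries and covers counting error only.

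Both libraries of a mouse come from the same animal by the labels, so the mouse pairs them. Their deviations from the group means correlated over genes at 0.096, 0.074, 0.0033 and 0.171 in JV602, JV621, JV624 and JV6314. The replicate block moved no call.

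The members and lists were chosen with earlier results of these data known. Named were all 10 members, other claudin rows that passed the filter, the 4 tight junction genes with the smallest p with Ocln, Tjp1, Cgn and Epcam, and the 5 genes most like Cldn5 and like the member with the highest level per length, of which the second set is not reported here. Other scalings, filters and tests, a block for the mouse, and the omission of single libraries were tried as alternatives.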

Additional observations from a re-analysis of the deposited data

Results flagged for a closer look

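Among 40 groups of 4 libraries (20 genes: the claudins that passed the filter and the named tight junction genes, in 2 groups each), 2 held a library far from the other 3, and chance gives about 1 in 20. Cldn1 was at 43.1 CPM (273 counts) in the non-LRC library of JV624 and at 0 to 6.51 CPM in the other non-LRC libraries. Jam2 was at 1422 CPM (6808 counts) in the non-LRC library of JV621 and at 115 to 145 CPM in the other non-LRC libraries. Neither was tested for a cause.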

How the results depend on the processing

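Over 18 alternative settings, 167 of 180 values of the 10 members kept their direction and their side of the threshold, 11 reversed and 2 passed the threshold. The number of genes called, 0 in the quasi-likelihood test (702 at an unadjusted p below 0.05), was 11 with no expression filter, 221 with DESeq2, 159 with edgeR's exact test, and 0 to 6 with each library left out, the 6 without the non-LRC library of JV602. The number of members called, 0, became 1 (Cldn5) with DESeq2 and 1 with the exact test. The log2 fold change of Cldn5 stayed between -3.97 and -3.35, with adjusted p from 1.25e-08 to 0.398. In the paired fit with the mouse as a replicate block, 0 genes and 0 members were called (569 genes at an unadjusted p below 0.05), the adjusted p of Cldn5 was 0.248, and the log2 fold change of Cldn1 was -1.75. Cldn1 stood at -0.49 in limma and at -4.49 without the mouse JV621, against -3.29 in the quasi-likelihood test. The log2 fold change of Cldn4 reversed to -0.013 with DESeq2's size factors and in DESeq2 and to -0.023 in limma, and ran from -0.17 to 0.25 with each library left out. That of Cldn10 reversed to 0.031 in limma and ran from -0.30 to 0.12 with each library left out, and that of Cldn2 reversed to -0.0092 without the mouse JV621, an alternative chosen after seeing the data. Without division by length Cldn8 led with a mean share of 29.0% in place of 25.3%, while that of Cldn3 was 20.7% in place of 33.1%, of Cldn12 16.0% in place of 7.77%, of Cldn6 15.3% in place of 18.1% and of Cldn2 7.95% in place of 4.87%. The median over all genes, -0.015, was 0.101 in limma and 0.143 with the block. The cause of these changes was not tested. A count of 3 stands for up to 0.626 CPM in these libraries, which limits the precision of the claudins at few counts.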

Other observations

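Among the claudins below the filter, Cldn18, a claudin of stomach and lung epithelium, was counted 6, 13, 6 and 2 times in LLRCs of JV602, JV621, JV624 and JV6314 and 0 times in each of the 4 non-LRC libraries. Its mean of 0.806 ± 0.557 CPM (SD, n = 4) in LLRCs was 1.56 times the mean over the non-LRC libraries of the level that 3 counts in a library would give. That ratio is for the means alone, since the LLRC library of JV6314, with 2 counts (0.222 CPM), was itself below 3 counts. Cldn18 was singled out after its values were seen, so no test is given. Cldn9 had 17 counts in the LLRC library of JV6314 and 0 or 1 in each of the other 7 libraries, and Cldn14 was read at 2 to 22 counts in all 8.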
